A study of Mus musculus with 21 samples.

Results

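Long intergenic non-coding RNA (lincRNA) genes were studied in RNA-seq counts of mouse bone marrow c-kit+ cells, taking the 150 autosomal lincRNA genes with the most reads. The members were selected on their abundance: genes with the lincRNA biotype on chromosomes 1 to 19 of the deposited table were ranked by their raw counts summed over all 11 libraries, and the leading 150 of 4915 were kept. They held 544398 of 607621 lincRNA counts, or 89.6%, while 2877 of the 4915 genes had no read in any library. Because the rule uses abundance in these same libraries, that share is a description and carries no test. Summed counts ran from 402 to 134636, with a median of 1045. The last genes inside the list were 1810006J02Rik with 404 counts and Gm30211 with 402, and the nearest outside were Gm26518 with 399 and C920006O11Rik with 396. When each library was weighted alike through summed CPM (counts normalised for library size), all 150 genes were again in the leading 150.

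The cells came from bone marrow of C57BL/6 mice and were enriched with CD117 beads for c-kit, a receptor tyrosine kinase of blood stem and progenitor cells. The genotypes were WT (n = 3), Asxl1-/- (n = 2), Jak2V617F (n = 3) and Asxl1-/-Jak2V617F (n = 3). Asxl1 is a chromatin protein and the partner of the histone deubiquitinase BAP1. The V617F change activates Jak2, a cytokine receptor kinase, and is common in myeloproliferative neoplasms. The labels give no age, no sex, no allele design or Cre driver, and do not say whether replicates are separate animals. The p-values thus reflect only how these libraries vary, and where libraries share an animal that variation is technical. Sex-linked reads place Jak2V617F 2 apart from Jak2V617F 1 and 3, so at least that group holds more than 1 animal. ATAC-seq and ChIP-seq samples were not analysed here.

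A lincRNA is transcribed, spliced and often polyadenylated like an mRNA but lies outside protein-coding genes and is not known to be translated. Some stay in the nucleus and organise bodies there, as Malat1 does in nuclear speckles and Neat1 in paraspeckles. Others mainly carry a smaller RNA, such as a miRNA or a snoRNA, that is cut from the transcript or its introns, and others again lie near a coding gene whose transcription they or their enhancers influence. In blood, lincRNAs tend to be more restricted to a lineage than mRNAs, so their levels in a mixed progenitor fraction depend on which cells are in it.

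Reads were concentrated on few genes. Malat1 alone took 24.7% of the member counts, the leading 5 genes 51.6% and the leading 10 genes 62.1%. Set per kilobase of the gene's deposited length, Malat1 stood at 98.4 CPM per kb (mean over libraries), the median member at 2.31 and the lowest at 0.378, and 17 members exceeded 10 CPM per kb. Next on the per-length scale came Gm10076 at 70.5, Mir142hg at 54.6, 2900097C17Rik at 42.6, Gm42047 at 41.3, Epb41l4aos at 40.7 and AU020206 at 31.5 CPM per kb. Members ranged from 269 to 20771 bases in length, with a median of 2533, and lay on all 19 autosomes. Uncharacterised loci made up most of the list, with 63 Gm and 54 Rik symbols. By position, 82 members overlapped no other gene of the table and 33 overlapped a coding gene, 9 of them on its strand. RefSeq (GRCm38.p6) held 105 of the members, 98 by symbol and 7 by synonym, and called 92 of them lncRNA, 11 protein coding 1 a pseudogene and 1 a transcribed pseudogene. Strand use in counting is not given in the sources used here, so reads of a member and of a gene overlapping it cannot be told apart.

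Library totals ranged from 16198011 to 19196283 counts. Asxl1 was at 89.0 to 97.0 CPM in Asxl1-/- and 93.5 to 100.4 CPM in Asxl1-/-Jak2V617F, below the 161 to 164 CPM of WT and 132 to 196 CPM of Jak2V617F. Asxl1 reads were thus lower but not absent in the Asxl1-/- genotypes, and where in the gene they lie cannot be read from gene counts. In Jak2V617F, 6 late neutrophil markers summed to 1828 to 4890 CPM against 23896 to 53608 CPM in the other libraries. The 5 primary granule markers summed to 675 to 1200 against 9766 to 20660 CPM. The 8 erythroid markers summed to 2437 to 3738 against 582 to 1742 CPM, and 4 dendritic cell and MHC class II markers to 2017 to 2786 against 166 to 387 CPM. Of the latter 4, Cd74, H2-Aa and H2-Ab1 rose in Jak2V617F against WT (log2 changes of 3.25, 3.57 and 3.36). Siglech, the other gene of that list, went the opposite way without passing (-1.30, adjusted p = 0.187 by edgeR). Both Asxl1-/- libraries and Jak2V617F 2 carried Y-linked reads (184 to 273 CPM) and almost no Xist, whereas WT had Xist at 1935 to 2239 CPM. Sex and genotype therefore cannot be told apart in Asxl1-/- against WT.

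The members took the largest share of reads in WT and the smallest in Asxl1-/-. WT libraries spent 0.318, 0.406 and 0.403% of their counts on the 150 genes, Jak2V617F 0.302, 0.296 and 0.241%, Asxl1-/-Jak2V617F 0.229, 0.241 and 0.311%, and Asxl1-/- 0.159 and 0.178%. Thus the WT range lay above all other libraries and the Asxl1-/- range below them. Malat1 contributed to this but did not make up all of it, since without it the shares were 0.230 to 0.296% in WT and 0.145 to 0.160% in Asxl1-/-. Fewer cells of a type and less RNA per cell cannot be told apart in such bulk libraries. WT had the highest mean CPM for 84 members, Jak2V617F for 35, Asxl1-/- for 19 and Asxl1-/-Jak2V617F for 12. The same count was not made over all genes. Read shares of antisense genes were also highest in WT (0.155 to 0.190%) and lowest in Asxl1-/- (0.0971 to 0.106%). Sense intronic genes had this order too (0.0168 to 0.0193% and 0.00835 to 0.00874%). Coding genes (97.4 to 97.7% and 98.1%) and processed pseudogenes (0.642 to 0.756% and 0.820 to 0.920%) were instead lower in WT than in Asxl1-/-.

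**Figure D1:**
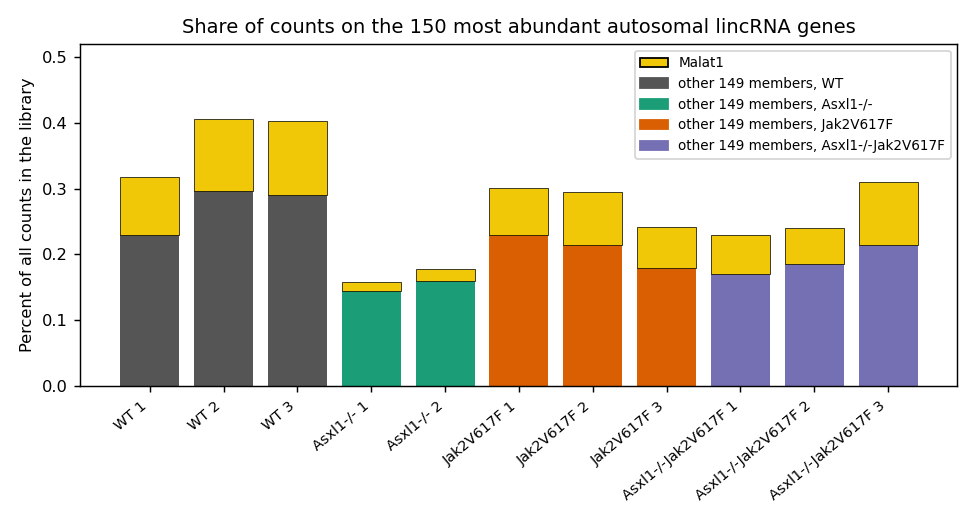
Percent of each library's counts (y axis) on the 150 members, split into Malat1 (yellow) and the other members (coloured by genotype), for the 11 libraries (x axis). The WT bars reach 0.318 to 0.406% and the Asxl1-/- bars 0.159 to 0.178%, with a thin Malat1 section in Asxl1-/-.

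All 150 members passed the filter on low counts and were tested with 16262 genes in edgeR's quasi-likelihood fit, with adjusted p-values over all genes and a threshold of 0.05. In Jak2V617F against WT 71 members fell and 20 rose, 60.7% of the list, where 53.5% of all genes were called (29.2% fell and 24.4% rose). The median log2 fold change was -0.57 over the members and -0.05 over all genes. In Asxl1-/- against WT 50 fell and 5 rose, 36.7% of the list against 22.5% of all genes (11.2% fell, 11.3% rose), with medians of -0.59 and -0.01. In Asxl1-/-Jak2V617F against WT 30 fell and 1 rose, 20.7% against 15.1% of all genes (6.76% fell, 8.3% rose), with medians of -0.49 and -0.02. These 3 comparisons share the WT libraries.

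Between the Jak2V617F genotypes rises and falls were closer in number. In Asxl1-/-Jak2V617F against Jak2V617F 40 members rose and 29 fell, 46% of the list, near the 44.3% of all genes called (24.5% rose, 19.8% fell), with a median of 0.07. Scaling by library totals without TMM moved the median of all genes to -0.12 there and the split to 35 rising and 37 falling. The Jak2V617F libraries are shared with the comparison against WT. The interaction compares the shift from Jak2V617F to Asxl1-/-Jak2V617F with the shift from WT to Asxl1-/-. It was called for 81 members, 54% of the list against 41.6% of all genes. Its sign was positive, meaning a more upward shift in the Jak2V617F background, for 65 of them and negative for 16 (23.7% and 17.9% of all genes). The median was 0.90 over the members and 0.10 over all genes. The positive sign was not particular to the members. Among 308 other tested autosomal lincRNA genes 66 were positive and 10 negative, with a median of 0.82. Antisense genes had a median of 1.14 and coding genes of 0.03.

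Among the less abundant autosomal lincRNA genes 308 could be tested, and falls outnumbered rises there too. In Jak2V617F against WT 76 fell and 26 rose, in Asxl1-/- against WT 44 fell and 1 rose, and in Asxl1-/-Jak2V617F against WT 23 fell. These falls were 24.7, 14.3 and 7.47% of the 308 genes, where 29.2, 11.2 and 6.76% of all genes fell. In Jak2V617F against WT the share that fell was thus below that of all genes, and so was the share that rose (8.44% against 24.4%). The median log2 fold change there was -0.31 over the 308 genes and -0.05 over all genes. Some counts changed when a library was left out, which also leaves fewer libraries to compare. In Asxl1-/- against WT 13 members were called without Asxl1-/- 1, 30 without Asxl1-/- 2 and 35 without WT 2. In Asxl1-/-Jak2V617F against WT 17 were called without Asxl1-/-Jak2V617F 1, 12 without Asxl1-/-Jak2V617F 2, 48 without WT 1, 12 without WT 2 and 10 without WT 3. The interaction was called for 52 members without Asxl1-/- 1.

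**Figure D2:**
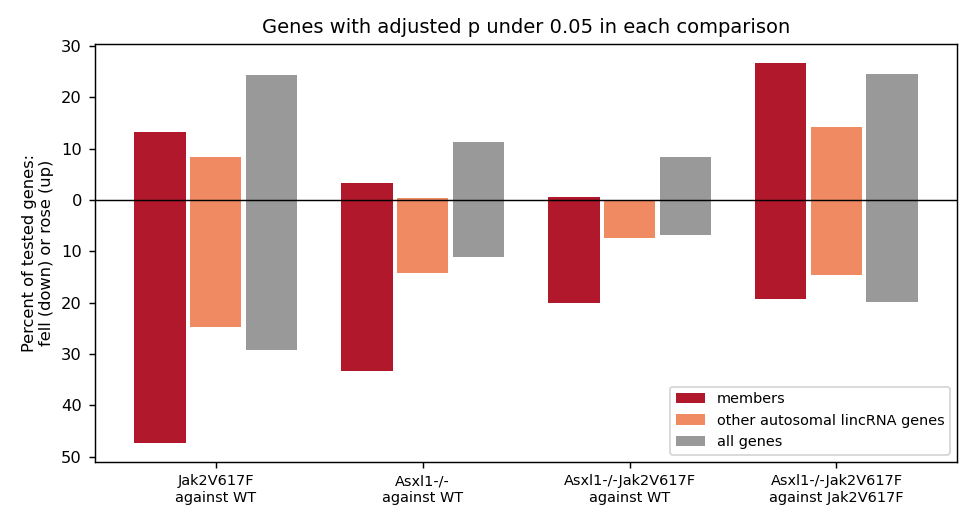
Percent of tested genes (y axis, rises above 0 and falls below) with an adjusted p under 0.05 in 4 comparisons (x axis), for the 150 members, 308 other autosomal lincRNA genes and all 16262 genes. In the 3 comparisons with WT the members' bars extend further down (47.3, 33.3 and 20%) than those of all genes (29.2, 11.2 and 6.76%).

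In all, 95 members (63.3%) fell against WT in at least 1 genotype and 36 (24%) were called in none of the 3, where 37.5% and 35.2% of all genes did so. Those that fell in all 3 numbered 12 (8% against 1.59% of all genes), among them Neat1, 1700020I14Rik, Mir142hg, Mirt1, Gm13431, Gm17552, Gm20342 and 2610037D02Rik, and 1 member, Gm32051, rose in all 3 (0.667% against 4.27%). The WT libraries enter each of these calls, so that a high value in WT moves them together. Several missed the threshold in Asxl1-/-Jak2V617F against WT when a library of either group was left out, which also leaves fewer libraries to compare. Over all alternatives their log2 changes kept their sign, at -1.25 to -0.94 for Gm20342, -1.83 to -1.22 for Mirt1 and -1.41 to -0.98 for Gm13431. Without Asxl1-/-Jak2V617F 1, Asxl1-/-Jak2V617F 2, WT 2 and WT 3 in turn, the adjusted p of Gm20342 was 0.0762, 0.0993, 0.105 and 0.0868, that of Mirt1 0.0666, 0.0678, 0.0653 and 0.054, and that of Gm13431 0.0577, 0.0606, 0.0668 and 0.0709. In Asxl1-/- against WT, 2610037D02Rik was lost without Asxl1-/- 1 (0.165), Asxl1-/- 2 (0.106), WT 2 (0.0632) or WT 3 (0.0738), and Gm17552 without Asxl1-/- 1 (0.108).

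**Figure D3:**
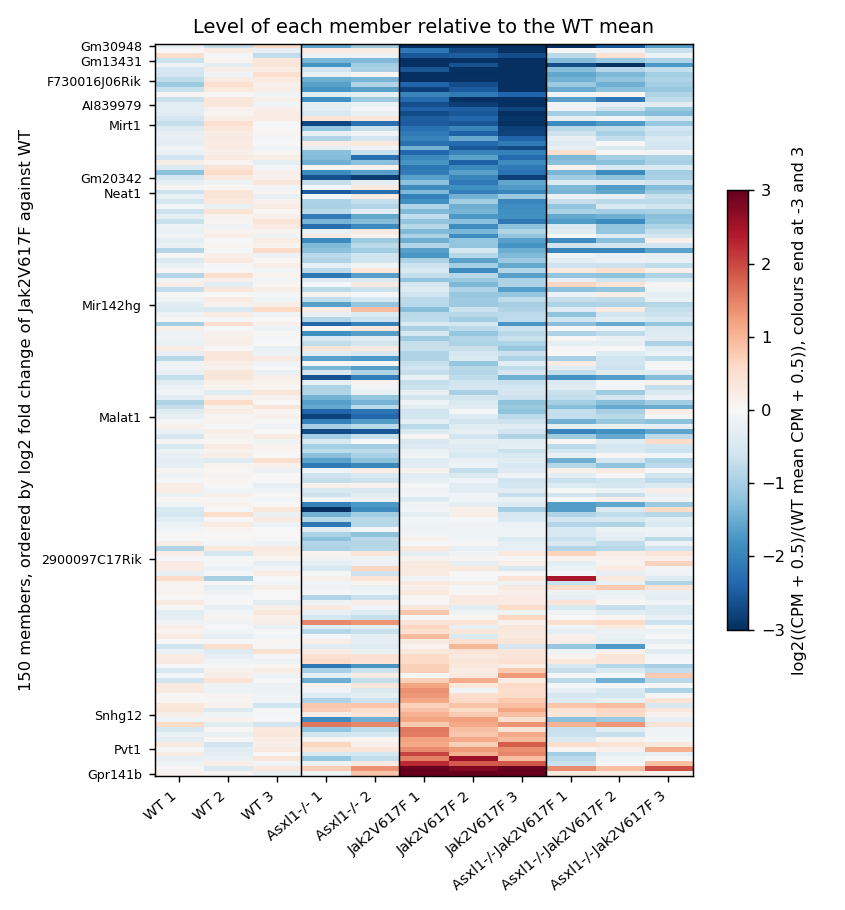
Level of each member relative to its WT mean, as log2((CPM + 0.5)/(WT mean CPM + 0.5)), in the 11 libraries (x axis), with the 150 members (y axis) ordered by the fitted Jak2V617F against WT change, which sets the gradient seen in the Jak2V617F columns. Colours end at -3 and 3. The Asxl1-/- columns hold a further set of blue rows, Malat1 among them, that are pale in Jak2V617F.

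Among the RNAs of nuclear bodies, Malat1 and Neat1 were both lowest in Asxl1-/-. Malat1 (ENSMUSG00000092341, mm10 chromosome 19, 5795690 to 5802672, minus strand) is an RNA of nuclear speckles, where splicing factors gather. It measured 865, 1057 and 1097 CPM in WT, 688, 771 and 584 CPM in Jak2V617F, 610, 572 and 971 CPM in Asxl1-/-Jak2V617F, and 147 and 195 CPM in Asxl1-/-. The Asxl1-/- libraries were below all others, while the ranges of both Jak2V617F genotypes overlapped. Malat1 fell by 2.56 ± 0.25 (log2, SE) in Asxl1-/- against WT, a 5.90-fold difference (adjusted p = 0.000658). Against Jak2V617F, Asxl1-/-Jak2V617F differed by 0.08 ± 0.20 (adjusted p = 0.793), and the interaction was 2.63 ± 0.32 (adjusted p = 0.000182). As a result Malat1 made up 8.46 and 10.1% of member counts in Asxl1-/- and 22.9 to 31.0% in the remaining libraries.

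In Jak2V617F against WT the fall of Malat1 was smaller (-0.56 ± 0.20, adjusted p = 0.0371). That call missed the threshold when Jak2V617F 1 (0.0882), Jak2V617F 3 (0.128), WT 2 (0.101) or WT 3 (0.105) was left out, and with median-of-ratios scaling (0.054), library totals (0.0585) or no filter (0.124). In Asxl1-/-Jak2V617F against WT Malat1 was below the WT level by a margin that missed the threshold (-0.49 ± 0.20, adjusted p = 0.124). Leaving out Asxl1-/-Jak2V617F 3, the library at 971 CPM, gave 0.0158. The small difference between Asxl1-/-Jak2V617F and Jak2V617F changed sign without Asxl1-/-Jak2V617F 3 (-0.21), without Jak2V617F 3 (-0.03) and with library totals (-0.04). The table places the genes Gm37376 and Gm20417 over Malat1, so reads may be split between them.

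The promoter of Malat1 is shown because this RNA carries the largest share of the reads; it is the RefSeq sequence from 250 bases before to 50 bases after the annotated start (GRCm38.p6, chr19:5802623-5802922, minus strand, 5′ to 3′). Capitals mark GAGGAA, the core of sites for the myeloid factor PU.1, which occurs once.
Malat1: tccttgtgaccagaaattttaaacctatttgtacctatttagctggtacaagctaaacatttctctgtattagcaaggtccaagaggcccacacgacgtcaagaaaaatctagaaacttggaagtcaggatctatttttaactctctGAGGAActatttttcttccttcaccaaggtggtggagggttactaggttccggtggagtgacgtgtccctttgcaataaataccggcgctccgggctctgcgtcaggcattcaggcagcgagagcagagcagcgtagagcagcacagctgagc

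Neat1 (ENSMUSG00000092274, chromosome 19, 5824708 to 5845478, minus strand), the scaffold of paraspeckles, neighbours Malat1. It measured 148, 297 and 244 CPM in WT, 40.4 and 47.5 CPM in Asxl1-/-, 91.9, 54.4 and 58.9 CPM in Jak2V617F, and 86.9, 78.0 and 110 CPM in Asxl1-/-Jak2V617F. Every library outside WT was below the lowest WT library, and the 2 Asxl1-/- libraries were lowest of all. Neat1 fell by 2.39 ± 0.34 in Asxl1-/- (adjusted p = 0.00303), by 1.75 ± 0.28 in Jak2V617F (adjusted p = 0.000631) and by 1.33 ± 0.28 in Asxl1-/-Jak2V617F (adjusted p = 0.0184), each against WT. The Asxl1-/- call was lost without Asxl1-/- 1 (0.0572), and the Asxl1-/-Jak2V617F call without Asxl1-/-Jak2V617F 1 (0.0618), Asxl1-/-Jak2V617F 2 (0.0644), WT 2 (0.0665) or WT 3 (0.0576). The interaction was 2.81 ± 0.43 (adjusted p = 0.00107). Genes for 9 paraspeckle proteins, such as Nono and Sfpq, moved in both directions: 3 rose in Jak2V617F against WT (24.4% of all genes rose), 1 rose and 2 fell in Asxl1-/- against WT (22.5% of all genes called), and 1 rose in Asxl1-/-Jak2V617F against WT (8.3% rose).

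Other abundant members differed in how steady they were. 2900097C17Rik, which RefSeq names Norad and which binds Pumilio proteins, varied little between libraries. It lay at 198 to 215 CPM in WT, 188 to 189 in Asxl1-/-, 198 to 224 in Jak2V617F and 219 to 227 in Asxl1-/-Jak2V617F, and was called in no comparison. 1700020I14Rik, RefSeq's Oip5os1 and known as Cyrano, directs the decay of a miRNA. It measured 223, 264 and 253 CPM in WT and 142 to 214 CPM in every other library, so WT stood apart. It fell by 0.39 ± 0.11 in Jak2V617F (adjusted p = 0.0106), by 0.78 ± 0.13 in Asxl1-/- (adjusted p = 0.00314, 0.0539 without Asxl1-/- 1) and by 0.54 ± 0.11 in Asxl1-/-Jak2V617F (adjusted p = 0.0139, 0.0551 without WT 2 and 0.0517 without WT 3).

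AU020206, an uncharacterised RNA near Klhl25, separated the genotypes in both directions. It measured 113, 95.1 and 104 CPM in WT, 144, 131 and 126 CPM in Jak2V617F, 57.2 and 65.0 CPM in Asxl1-/- and 85.7, 92.3 and 90.9 CPM in Asxl1-/-Jak2V617F, with no overlap between the 4 groups. It rose by 0.37 ± 0.09 in Jak2V617F against WT (adjusted p = 0.00379), fell by 0.76 ± 0.10 in Asxl1-/- against WT (adjusted p = 0.00146) and fell by 0.58 ± 0.09 in Asxl1-/-Jak2V617F against Jak2V617F (adjusted p = 0.000248). Its interaction did not pass (0.19 ± 0.13, adjusted p = 0.272).

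Gm26917 went the other way in Asxl1-/-. It measured 124 and 114 CPM in Asxl1-/- against 42.4, 42.1 and 51.6 CPM in WT and 28.7 to 68.4 CPM in both Jak2V617F genotypes. The rise against WT was 1.39 ± 0.29 (adjusted p = 0.0107, 0.0895 without Asxl1-/- 1). Gm26917 (chromosome 17, 39843013 to 39846341) ends 13 bases before Rn18s-rs5, a ribosomal RNA pseudogene of RefSeq, and the handling of reads that map to several places is not given in the sources used here, so its level is uncertain. Gm10076, a pseudogene in RefSeq, is uncertain for the same reason. It measured 36.7, 45.7 and 52.8 CPM in WT and 11.6 to 49.2 CPM elsewhere, and its fall in Jak2V617F (-1.43 ± 0.47, adjusted p = 0.0297) was lost without Jak2V617F 1 (0.0823), 2 (0.0587) or 3 (0.0936) and without WT 2 (0.0658) or WT 3 (0.0745).

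Gm42047, ranked 2 by counts, varied widely within genotypes. It measured 218, 307 and 381 CPM in WT, 287, 337 and 148 CPM in Jak2V617F, 37.5 and 83.0 CPM in Asxl1-/-, and 94.0, 223 and 450 CPM in Asxl1-/-Jak2V617F. Although both Asxl1-/- libraries were below all others, the difference from WT (-2.33 ± 0.72) did not pass (adjusted p = 0.0533). Tmem250-ps, a coding gene in RefSeq, measured 51.5, 37.2 and 43.3 CPM in WT, 65.5, 54.1 and 58 CPM in Jak2V617F, 60.4 and 60.5 CPM in Asxl1-/- and 47.3, 56.5 and 41.5 CPM in Asxl1-/-Jak2V617F. It rose by 0.43 ± 0.14 in Jak2V617F and by 0.46 ± 0.15 in Asxl1-/-, both against WT. The call in Jak2V617F was lost without Jak2V617F 1 (0.0689), WT 2 (0.0858) or WT 3 (0.0565), and that in Asxl1-/- without Asxl1-/- 1 (0.198), Asxl1-/- 2 (0.163), WT 2 (0.158) or WT 3 (0.115), and also with library totals (0.167) or a replicate block (0.0809).

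**Figure D4:**
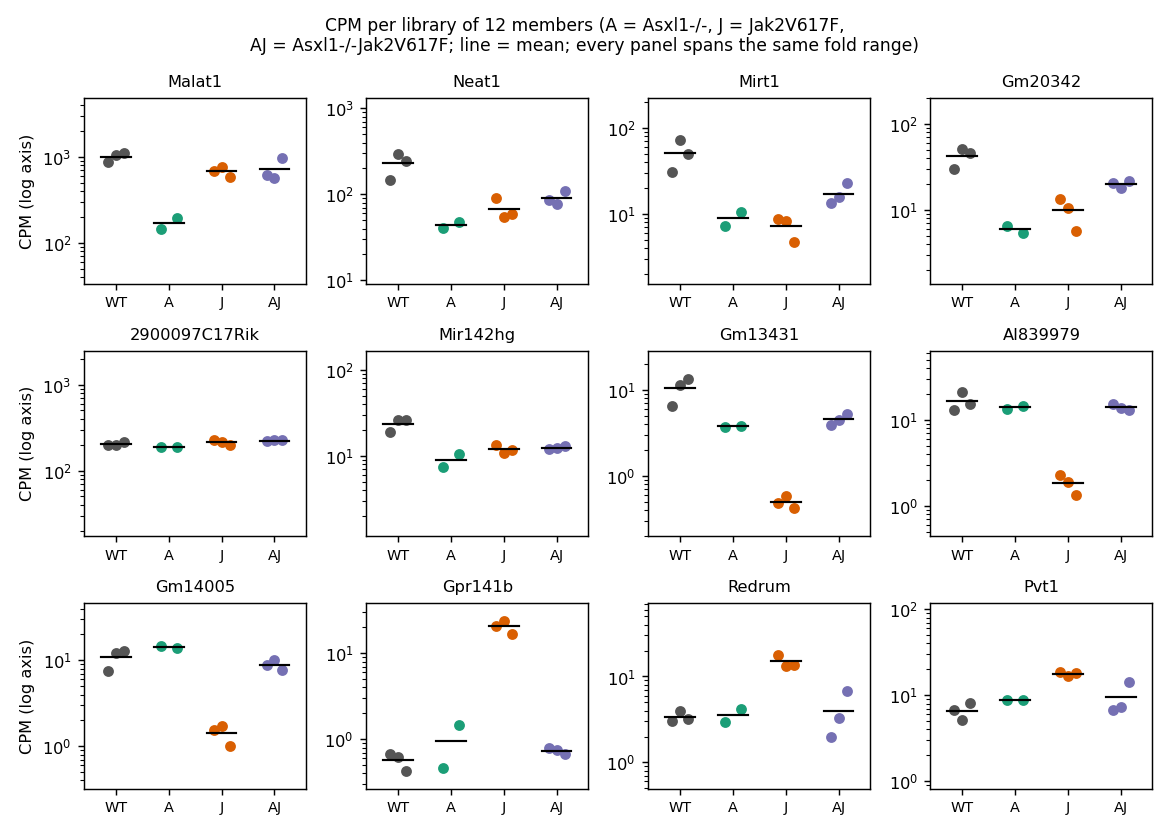
CPM of 12 members (log axis) in each library, with WT, Asxl1-/- (A), Jak2V617F (J) and Asxl1-/-Jak2V617F (AJ) on the x axis and group means as lines. Every panel spans the same fold range. 2900097C17Rik is flat between 188 and 227 CPM, Malat1 drops to 147 and 195 CPM in Asxl1-/-, and Gpr141b is at 16.9 to 23.9 CPM in Jak2V617F and at most 1.45 CPM elsewhere.

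By coordinates, 7 members hold a miRNA gene. Of these 3 fell in Jak2V617F against WT, 2 fell in Asxl1-/- against WT and 2 fell in Asxl1-/-Jak2V617F against WT, and 2 rose and 1 fell in Asxl1-/-Jak2V617F against Jak2V617F. Of all genes 29.2, 11.2 and 6.76% fell in the 3 comparisons with WT. For Asxl1-/-Jak2V617F against Jak2V617F, 24.5% of all genes rose and 19.8% fell. Counts this small cannot set the class apart. The counts are of the host RNA and not of the mature miRNA, which such libraries do not measure. The products of Mir142hg, a miRNA locus active across blood cells, and of Mir17hg, the growth-promoting miR-17-92 cluster, are given to show what the 2 hosts of the list's miRNA class encode. RefSeq mature sequences are 5′ to 3′ with the seed (bases 2 to 8) in capitals, the Mir142hg pair first.
mmu-miR-142a-5p: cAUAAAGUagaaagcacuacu
mmu-miR-142a-3p: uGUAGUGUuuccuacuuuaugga
mmu-miR-17-5p: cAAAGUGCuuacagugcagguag
mmu-miR-20a-5p: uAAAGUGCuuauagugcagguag
mmu-miR-18a-5p: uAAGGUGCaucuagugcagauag
mmu-miR-19a-3p: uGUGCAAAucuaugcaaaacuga
mmu-miR-19b-3p: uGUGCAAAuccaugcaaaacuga
mmu-miR-92a-3p: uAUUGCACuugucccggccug
Within the cluster, miR-17-5p and miR-20a-5p share the seed AAAGUGC, and miR-19a-3p and miR-19b-3p share GUGCAAA.

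Mir142hg (chromosome 11, 87755577 to 87757270) was lower in every genotype than in WT. It measured 18.9, 25.7 and 26.3 CPM in WT, 7.29 and 10.3 CPM in Asxl1-/-, 13.3, 10.9 and 11.6 CPM in Jak2V617F and 11.9, 12.3 and 12.9 CPM in Asxl1-/-Jak2V617F. WT did not overlap any other group, and the 2 Jak2V617F genotypes overlapped. Against WT it fell by 1.42 ± 0.20 in Asxl1-/- (2.68-fold, adjusted p = 0.0019), by 0.99 ± 0.17 in Jak2V617F (adjusted p = 0.000513) and by 0.93 ± 0.17 in Asxl1-/-Jak2V617F (adjusted p = 0.0102). Mir17hg, chosen after its values were seen, was called in no comparison. It measured 16.6, 39.1 and 39.0 CPM in WT, 40.2, 26.7 and 26.5 CPM in Jak2V617F, 16 and 17.1 CPM in Asxl1-/- and 16.8, 17.3 and 20.4 CPM in Asxl1-/-Jak2V617F. WT 1 lay with the low libraries, and the difference between the Jak2V617F genotypes (-0.78 ± 0.29) had an adjusted p of 0.0533.

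Gm37233, which holds the gene of miR-5103, had a different order. Its level was 10.5, 13.4 and 12.2 CPM in WT, 17.3, 12.3 and 11.2 CPM in Asxl1-/-Jak2V617F, 4.78 and 7.44 CPM in Asxl1-/- and 1.93, 2.60 and 2.58 CPM in Jak2V617F. Against WT it fell by 2.34 ± 0.24 in Jak2V617F (adjusted p = 1.29e-05) and by 0.97 ± 0.26 in Asxl1-/- (adjusted p = 0.022), and it rose by 2.52 ± 0.24 in Asxl1-/-Jak2V617F against Jak2V617F (adjusted p = 9.26e-06). The Asxl1-/- call was lost without Asxl1-/- 1 (0.229), WT 2 (0.0714) or WT 3 (0.0553). Libraries with both lesions overlapped WT (0.18 ± 0.22, adjusted p = 0.598), and the interaction was 3.49 ± 0.36 (adjusted p = 4.95e-05).

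Hosts of snoRNAs, the guides of ribosomal RNA modification that are processed from introns, were among the members that rose. Of 21 such hosts listed, 4 are members (Snhg6, Snhg12, Snhg20 and Epb41l4aos), and 3 of them rose in Jak2V617F against WT (24.4% of all genes rose). By coordinates 6 members hold a snoRNA gene, with 2700038G22Rik and 2900076A07Rik added, and 3 of the 6 rose. The median log2 change was 0.70 over the 4 and 0.36 over the 6. Snhg12 measured 31.0, 25.2 and 26.3 CPM in WT, 57.1, 47.0 and 52.0 CPM in Jak2V617F, 31.2 and 36.5 CPM in Asxl1-/- and 34.9, 41.2 and 30.3 CPM in Asxl1-/-Jak2V617F. The Jak2V617F libraries were above all others. Snhg12 rose by 0.92 ± 0.13 in Jak2V617F against WT (adjusted p = 0.000148) and fell by 0.55 ± 0.13 in Asxl1-/-Jak2V617F against Jak2V617F (adjusted p = 0.00564).

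Epb41l4aos measured 22.3, 17.8 and 27.9 CPM in Jak2V617F against 15.5, 8.79 and 11.8 CPM in WT, a rise of 0.91 ± 0.21 (adjusted p = 0.00349). Snhg6 rose by 0.48 ± 0.14 in Jak2V617F (adjusted p = 0.0145) and by 0.50 ± 0.16 in Asxl1-/- (adjusted p = 0.0422), both against WT. The first call was lost without WT 2 (0.0593) or WT 3 (0.0615). The second was lost without Asxl1-/- 1 (0.243), Asxl1-/- 2 (0.0983), WT 2 (0.131) or WT 3 (0.128), and with library totals (0.134). Snhg20 fell by 0.73 ± 0.19 in Asxl1-/-Jak2V617F against Jak2V617F (adjusted p = 0.00787). Spliced RNAs of such hosts are commonly degraded by nonsense-mediated decay. Of 10 genes of that pathway, 2 rose in Jak2V617F against WT, where 24.4% of all genes rose. Falls numbered 3 in Asxl1-/- against WT (11.2% of all genes fell) and 2 in Asxl1-/-Jak2V617F against Jak2V617F (19.8%). Counts this small cannot set the pathway apart, and its part in the hosts' changes was not tested.

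The class of RNAs tied to p53, Myc or cell survival has 4 members. Gm14005, RefSeq's Morrbid, controls the lifespan of short-lived myeloid cells by repressing the pro-apoptotic gene Bcl2l11. It measured 7.5, 12.3 and 12.8 CPM in WT, 14.7 and 13.9 CPM in Asxl1-/-, 8.87, 10.1 and 7.70 CPM in Asxl1-/-Jak2V617F, and 1.56, 1.72 and 1.0 CPM in Jak2V617F. Jak2V617F libraries were thus far below the rest, which overlapped partly. Morrbid fell by 2.92 ± 0.27 in Jak2V617F against WT (7.58-fold, adjusted p = 4.77e-06) and rose by 2.63 ± 0.27 in Asxl1-/-Jak2V617F against Jak2V617F (adjusted p = 1.23e-05). Neutrophil markers moved the same way, and their part in this result was not tested.

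Pvt1, which lies beside Myc and is amplified with it in tumours, ran the other way. Its levels were 6.66, 5.18 and 8.02 CPM in WT, 8.69 and 8.72 CPM in Asxl1-/-, 18.5, 16.7 and 18.3 CPM in Jak2V617F, and 6.79, 7.38 and 14.4 CPM in Asxl1-/-Jak2V617F. The Jak2V617F libraries were highest, with Asxl1-/-Jak2V617F 3 the nearest to them. Pvt1 rose by 1.43 ± 0.27 in Jak2V617F against WT (adjusted p = 0.000784) and fell by 0.91 ± 0.26 in Asxl1-/-Jak2V617F against Jak2V617F (adjusted p = 0.0145). The latter was lost without Asxl1-/-Jak2V617F 1 (0.0589) or 2 (0.0581). Myc itself differed by 0.49 ± 0.23 in Jak2V617F against WT, which did not pass (adjusted p = 0.104).

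Lockd, transcribed downstream of the cell cycle inhibitor gene Cdkn1b, measured 18.2, 26.0 and 24.6 CPM in WT and 13.8, 14.9 and 14.2 CPM in Jak2V617F. It fell by 0.68 ± 0.18 (adjusted p = 0.00696), and Cdkn1b fell by 0.45 ± 0.16 (adjusted p = 0.0349) in the same comparison. In Asxl1-/-Jak2V617F against Jak2V617F Lockd rose by 0.57 ± 0.18 (adjusted p = 0.0213). This call was lost without Asxl1-/-Jak2V617F 2 (0.06) or 3 (0.0811), without Jak2V617F 1 (0.0619) or 3 (0.0541), and with library totals (0.0597). No imprinted, Hox cluster or immune response RNA of the lists was among the 150.

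Jak2V617F against WT had the most called members. The largest falls, among members whose groups did not overlap and that averaged at least 1 CPM, were those of Gm30948 (-5.34 ± 0.71), Gm807 (-4.38 ± 0.60), 4933440M02Rik (-4.38 ± 0.55), Gm13431 (-4.36 ± 0.32), 1700027J07Rik (-4.15 ± 0.65), Gm3942 (-3.89 ± 0.45), Gm36161 (-3.83 ± 0.34) and F730016J06Rik (-3.65 ± 0.43). Most of them have no known function. Gm30948 lies over a variable segment of the immunoglobulin heavy chain locus, Ighv1-57.

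Gm13431 (ENSMUSG00000087187, chromosome 2, 36216777 to 36222934) measured 6.49, 11.3 and 13.3 CPM in WT, 3.68 and 3.83 CPM in Asxl1-/-, 3.87, 4.41 and 5.25 CPM in Asxl1-/-Jak2V617F and 0.483, 0.589 and 0.422 CPM in Jak2V617F. The Jak2V617F libraries were lowest and WT highest, with the other genotypes between them. The fall in Jak2V617F against WT was 20.5-fold (adjusted p = 1.19e-06), and Asxl1-/-Jak2V617F was 3.16 ± 0.32 above Jak2V617F (adjusted p = 1.27e-05). Its own fall in Asxl1-/- against WT (-1.46 ± 0.31, adjusted p = 0.00867) was lost without Asxl1-/- 1 (0.0989) or 2 (0.0585). In RefSeq this locus lies within Ptgs1, the gene of cyclooxygenase-1, which fell alongside it.

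AI839979 (ENSMUSG00000107355, chromosome 5, 31569595 to 31571397) overlaps no gene of the table. It measured 13.1, 21.4 and 15.5 CPM in WT, 13.5 and 14.5 CPM in Asxl1-/-, 15.3, 13.8 and 13.2 CPM in Asxl1-/-Jak2V617F, and 2.25, 1.91 and 1.32 CPM in Jak2V617F. Outside Jak2V617F all groups overlapped. It fell by 3.18 ± 0.24 in Jak2V617F against WT (9.08-fold, adjusted p = 1.18e-06) and rose by 2.94 ± 0.23 in Asxl1-/-Jak2V617F against Jak2V617F (adjusted p = 2.21e-06), with an interaction of 3.20 ± 0.33 (adjusted p = 5.05e-05). 1810006J02Rik had the same order at a lower level, with 2.89 to 3.41 CPM in WT, 2.39 to 2.5 in Asxl1-/-, 1.47 to 3.32 in Asxl1-/-Jak2V617F and 0.211 to 0.429 in Jak2V617F (-3.25 ± 0.39 against WT, adjusted p = 3.17e-05).

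Rising members were fewer. Gpr141b (ENSMUSG00000047462, chromosome 13, 19727426 to 19732951), named for a G protein-coupled receptor and coding in RefSeq, measured 20.8, 23.9 and 16.9 CPM in Jak2V617F. It was at 0.671, 0.620 and 0.422 CPM in WT, 0.467 and 1.45 CPM in Asxl1-/-, and 0.786, 0.744 and 0.672 CPM in Asxl1-/-Jak2V617F. No other library came near the Jak2V617F level. It rose by 5.15 ± 0.36 against WT (35.4-fold, adjusted p = 8.1e-07), fell by 4.79 ± 0.35 in Asxl1-/-Jak2V617F against Jak2V617F (adjusted p = 1.22e-06). The interaction was -5.53 ± 0.54 (adjusted p = 3.2e-05).

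Promoters are shown for 3 members called in Jak2V617F against WT: AI839979 and 1810006J02Rik, which fell, and Gpr141b, which rose. They are RefSeq sequences (GRCm38.p6), each 300 bases long, 5′ to 3′, with GAGGAA on the printed strand in capitals; AI839979 is chr5:31571348-31571647 (minus), 1810006J02Rik chr1:98131217-98131516 (plus) and Gpr141b chr13:19732902-19733201 (minus).
AI839979: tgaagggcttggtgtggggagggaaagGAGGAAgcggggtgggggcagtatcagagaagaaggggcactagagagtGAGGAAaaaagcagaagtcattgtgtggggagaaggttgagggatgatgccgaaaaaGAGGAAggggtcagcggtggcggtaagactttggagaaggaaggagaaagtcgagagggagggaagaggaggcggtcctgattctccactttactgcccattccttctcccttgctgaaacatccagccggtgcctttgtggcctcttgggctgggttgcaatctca
1810006J02Rik: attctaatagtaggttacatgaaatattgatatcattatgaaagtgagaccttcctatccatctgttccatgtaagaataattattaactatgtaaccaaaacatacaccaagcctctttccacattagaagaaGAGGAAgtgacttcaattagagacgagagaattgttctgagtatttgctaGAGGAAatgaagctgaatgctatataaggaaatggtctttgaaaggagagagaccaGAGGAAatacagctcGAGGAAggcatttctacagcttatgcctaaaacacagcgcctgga
Gpr141b: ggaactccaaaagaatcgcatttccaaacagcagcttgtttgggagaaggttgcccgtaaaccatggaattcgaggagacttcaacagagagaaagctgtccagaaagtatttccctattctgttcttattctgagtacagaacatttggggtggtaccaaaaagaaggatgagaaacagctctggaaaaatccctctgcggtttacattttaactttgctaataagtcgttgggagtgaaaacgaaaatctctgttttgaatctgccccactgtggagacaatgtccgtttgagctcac
The motif occurs 3 times in AI839979, 4 times in 1810006J02Rik and not at all in the Gpr141b window. These windows do not stand for the list, where GAGGAA on either strand was in 5 of 11 promoters of members that rose and 12 of 33 of those that fell in Jak2V617F against WT. AI839979 and 1810006J02Rik had the most matches of all matched promoters. Among larger falls Gm30948, Gm3942 and 4933440M02Rik had 0, and F730016J06Rik and Gm36161 had 1 each.

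Redrum, named for its part in red cell development, measured 17.8, 13.4 and 13.7 CPM in Jak2V617F, 3.02, 3.94 and 3.19 CPM in WT, 2.98 and 4.18 CPM in Asxl1-/- and 1.96, 3.26 and 6.72 CPM in Asxl1-/-Jak2V617F. It rose by 2.14 ± 0.37 in Jak2V617F against WT (4.41-fold, adjusted p = 0.00045) and fell by 1.91 ± 0.36 in Asxl1-/-Jak2V617F against Jak2V617F (adjusted p = 0.00125). The erythroid markers were likewise highest in Jak2V617F, and their part in the result was not tested. Further rises against WT were those of Gm32051 (3.36 ± 0.35), 5430401H09Rik (1.98 ± 0.43), Gm33280 (1.64 ± 0.29), Pvt1, AI427809 (1.43 ± 0.34) and 2810455O05Rik (1.32 ± 0.28). AI427809 is RefSeq's Mexis, an RNA reported to help the cholesterol transporter gene Abca1 respond to sterols.

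Gm32051 measured 1.34, 0.845 and 1.75 CPM in WT, 2.51 and 4.13 CPM in Asxl1-/-, 4.38, 2.86 and 6.47 CPM in Asxl1-/-Jak2V617F, and 14.6, 12 and 14 CPM in Jak2V617F. WT was lowest and Jak2V617F highest, both clear of the other libraries. Against WT the rises were 10.3-fold in Jak2V617F (adjusted p = 1.39e-05), 1.80 ± 0.35 in log2 in Asxl1-/-Jak2V617F (adjusted p = 0.0115) and 1.34 ± 0.38 in Asxl1-/- (adjusted p = 0.0284). The Asxl1-/- call was lost without Asxl1-/- 1 (0.0748), Asxl1-/- 2 (0.217) or WT 2 (0.0977), and the Asxl1-/-Jak2V617F call without WT 2 (0.0501).

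The Jak2V617F libraries also set the extremes of the comparison with the double genotype. The largest rises in Asxl1-/-Jak2V617F against Jak2V617F were those of 4933440M02Rik (4.27 ± 0.55), Gm807 (4.12 ± 0.60), Gm13431, 1810006J02Rik (2.96 ± 0.39), AI839979, Gm3942 (2.85 ± 0.44), Gm14005 and 4933424M12Rik (2.55 ± 0.33). The largest falls were those of Gpr141b, 5430401H09Rik (-2.29 ± 0.44), Gm33280 (-2.17 ± 0.30), Gm15675 (-1.99 ± 0.33), Gm36723 (-1.92 ± 0.37), Redrum, 1300002E11Rik (-1.72 ± 0.24) and 1700063H04Rik (-1.68 ± 0.40). Gm807 measured 0.376, 0.0981 and 0 CPM in Jak2V617F against 3.37, 3.15 and 1.95 CPM in Asxl1-/-Jak2V617F, so its fold rests on few reads. Since Jak2V617F is on both sides of these comparisons, opposite signs follow in part from shared libraries. Marker lists moved too in Asxl1-/-Jak2V617F against Jak2V617F. All 5 tested primary granule genes, all 6 late neutrophil genes, 3 of 4 stem and progenitor genes, 3 of 4 megakaryocyte genes and 2 of 2 tested stroma genes rose. Falls were seen for 7 of 8 erythroid genes and 3 of 4 in the list of MHC class II and dendritic markers, while T and NK genes gave 1 rise and 2 falls of 4 and B lymphoid genes 1 rise of 4. Stem and progenitor markers summed to 254 to 362 CPM in Jak2V617F and 355 to 466 CPM in Asxl1-/-Jak2V617F, and megakaryocyte markers to 18.4 to 23.8 and 48.4 to 67.8 CPM. The part of these lists in the members' changes was not tested.

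In Asxl1-/- against WT falls again led. The largest were those of Gm38102 (-3.32 ± 0.31), Gm20045 (-2.98 ± 0.65), Gm20342 (-2.83 ± 0.35), Gm28187 (-2.65 ± 0.46), F420014N23Rik (-2.64 ± 0.36), Gm26724 (-2.61 ± 0.32), Malat1 and Mirt1 (-2.53 ± 0.42). Without Asxl1-/- 1 the calls of Gm20045 (0.114), Gm28187 (0.0736) and Mirt1 (0.0748) were lost, and without Asxl1-/- 2 that of Gm20045 (0.0524). The 5 rising members were Gm47882 (1.62 ± 0.37), Gm26917, Gm32051, Snhg6 and Tmem250-ps. Gm47882 was lost without Asxl1-/- 1 (0.0954) or 2 (0.0503).

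Gm38102 (chromosome 5, 123133939 to 123137695), which overlaps Rhof in RefSeq, measured 5.54, 7.33 and 6.51 CPM in WT, 4.62, 5.15 and 4.17 CPM in Jak2V617F, 0.583 and 0.697 CPM in Asxl1-/- and 1.23, 1.49 and 1.83 CPM in Asxl1-/-Jak2V617F. Both Asxl1-/- genotypes were below WT and Jak2V617F. It fell 9.99-fold in Asxl1-/- against WT (adjusted p = 0.000397), by 2.09 ± 0.24 in Asxl1-/-Jak2V617F against WT (adjusted p = 0.00371) and by 1.61 ± 0.24 in Asxl1-/-Jak2V617F against Jak2V617F (adjusted p = 0.000228). F420014N23Rik lay at 3.36 to 3.68 CPM in WT, 0.408 to 0.697 in Asxl1-/- and 1.53 to 2.36 in Asxl1-/-Jak2V617F, but was highest in Jak2V617F at 4.11 to 6.07 CPM. It lies over Pip4k2c and Dtx3.

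Gm20342 (chromosome 1, 63117118 to 63126837), beside the chromatin remodeller gene Ino80d, measured 30, 51.1 and 46.7 CPM in WT, 6.53 and 5.46 CPM in Asxl1-/-, 13.5, 10.6 and 5.70 CPM in Jak2V617F and 20.5, 18.1 and 21.6 CPM in Asxl1-/-Jak2V617F. Each single lesion was lower than the combination. Ino80d was likewise lower in Asxl1-/- (72.4 to 77.9 CPM) and Jak2V617F (80.0 to 110 CPM) than in Asxl1-/-Jak2V617F (142 to 159 CPM). WT had Ino80d at 153 to 165 CPM. RefSeq places Ino80dos, another member, over Gm20342, so reads may be shared. Gm20342 fell by 2.83 ± 0.35 in Asxl1-/- (adjusted p = 0.00147) and by 2.10 ± 0.29 in Jak2V617F (adjusted p = 0.000128) against WT. It rose by 1.01 ± 0.28 in Asxl1-/-Jak2V617F against Jak2V617F (adjusted p = 0.0139). Mirt1, named for its induction after myocardial infarction, measured 31.2, 73.7 and 49.5 CPM in WT, 7.29 and 10.5 CPM in Asxl1-/-, 8.70, 8.29 and 4.69 CPM in Jak2V617F and 13.4, 15.6 and 23.0 CPM in Asxl1-/-Jak2V617F.

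Other kinds of gene moved with the members in Asxl1-/- against WT. Of 531 tested TEC genes (unverified transcripts awaiting evidence) 235 fell and 1 rose, with a median of -1.80. Antisense genes gave 159 falls of 530 (median -1.14) and sense intronic genes 31 falls of 66 (median -1.88). Processed pseudogenes went up more than down, with 141 rises and 51 falls of 849 (median 0.40), and coding genes had 1670 rises and 1132 falls of 12955 (median 0.05). Of the blood lineage marker lists only 1 stem and progenitor gene and 1 T and NK gene were called. The part of intronic or unspliced reads, and of sex, in the members' fall was not tested.

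With both lesions set against WT the changes were fewer. The largest falls were those of 1700027J07Rik (-3.04 ± 0.60), Gm30948 (-2.77 ± 0.58), 9330175E14Rik (-2.30 ± 0.48), Gm38102, 2610037D02Rik (-1.70 ± 0.34), Gm21781 (-1.66 ± 0.36), Gm17552 (-1.65 ± 0.38) and Gm27010 (-1.64 ± 0.37). 1700027J07Rik measured 5.71, 4.73 and 8.08 CPM in WT, 1.46 and 2.73 CPM in Asxl1-/-, 0.215, 0.589 and 0.211 CPM in Jak2V617F and 0.561, 0.172 and 1.53 CPM in Asxl1-/-Jak2V617F, so that both Jak2V617F genotypes were low and overlapped. Without Asxl1-/-Jak2V617F 2 the calls of Gm30948 (0.0569), 9330175E14Rik (0.0521), 2610037D02Rik (0.0521), Gm21781 (0.0618), Gm17552 (0.0639) and Gm27010 (0.0659) were lost. Without WT 3 they were lost as well (0.0538, 0.0538, 0.0525, 0.0574, 0.0639 and 0.0697), and without WT 2 those of Gm21781 (0.0669), Gm17552 (0.0665) and Gm27010 (0.0659). Gm21781 (0.0592) and Gm17552 (0.0606) were also lost without Asxl1-/-Jak2V617F 1.

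Where a member and the coding gene nearest to its start were both called, they mostly moved in the same direction. The distance between the starts had a median of 23907.5 bases, 41 members started within 5000 bases of the coding start, and 16 were divergent from it within 1000 bases. In Jak2V617F against WT 78 called members had a tested neighbour, and 46 of those neighbours (59.0%) were called. That was near the 60.7% seen for the nearest coding genes of called coding genes. Of the 46 neighbours, 39 (84.8%) moved in the same direction as the member. Among called coding genes and their nearest coding gene the share was 64.1% (2219 of 3462). In Asxl1-/-Jak2V617F against Jak2V617F the shares were 90.6% (29 of 32) and 69.3%, and in Asxl1-/- against WT 69.2% (9 of 13) and 56.9%. Members clear of every gene of the table and of RefSeq coding genes gave 19 of 22 in Jak2V617F against WT and 14 of 16 in Asxl1-/-Jak2V617F against Jak2V617F, but 1 of 3 in Asxl1-/- against WT. The coding pairs above were taken at any distance. With starts within 5000 bases, the shares in Jak2V617F against WT were 91.7% (11 of 12) for members and 72.8% (577 of 793) for coding genes. The shares are descriptions with no test, since neighbouring genes are not independent.

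F730016J06Rik and Fcnb, a lectin gene of granulocytes, lie 10592 bases apart by their starts. F730016J06Rik measured 33.3, 67.3 and 69.0 CPM in WT and 4.78, 6.82 and 1.90 CPM in Jak2V617F, and Fcnb 442, 517 and 520 CPM in WT and 38.8, 45.9 and 21.4 CPM in Jak2V617F. Both were lower in every Jak2V617F library, by -3.65 ± 0.43 and -3.80 ± 0.24. Similar pairs were Gm13431 with Ptgs1 (-3.48 ± 0.27 for Ptgs1) and 1810006J02Rik with Pam, an enzyme that amidates peptides (-3.05 ± 0.22 for Pam). Gm32051 rose with Lrrc8b (1.34 ± 0.14), a subunit of volume-regulated channels that overlaps it in RefSeq, and 1300002E11Rik (1.23 ± 0.24) with Map3k13 (2.09 ± 0.43), whose start is 28 bases away and whose reads may be shared.

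Exceptions included Gm807 and Zfp366, a transcription factor gene of dendritic cells. Gm807 measured 3.36, 4.06 and 2.77 CPM in WT and 0.376, 0.0981 and 0 CPM in Jak2V617F, whereas Zfp366 rose from 2.35, 2.87 and 2.83 CPM to 20.5, 50.7 and 39.0 CPM (3.77 ± 0.39). Their starts lie 84117 bases apart. Snhg6 rose while Tcf24 fell (-2.60 ± 0.56). Tcf24 was at 1.01, 1.30 and 1.21 CPM in WT and 0.054, 0.392 and 0.106 CPM in Jak2V617F, so its fold rests on few reads. The Snhg6 call was itself lost without WT 2 or WT 3.

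**Figure D5:**
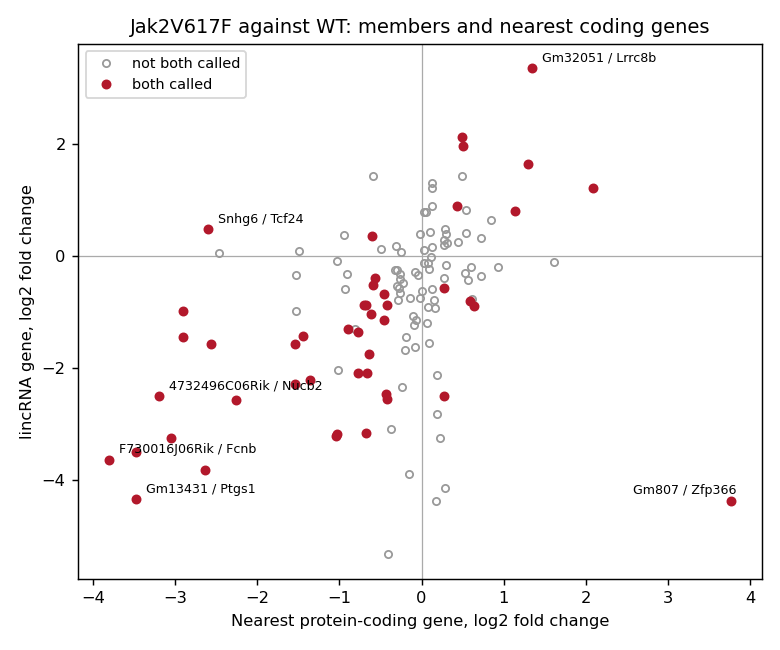
Log2 fold change in Jak2V617F against WT of 128 members with a tested neighbour (y axis) against that of the nearest protein-coding gene (x axis). Filled points are the 46 pairs in which both genes were called, of which 39 lie in the lower left or upper right part; Gm807 with Zfp366 is the pair at the lower right.

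RefSeq promoters matched 83 members, and 71 started within 1000 bases of the deposited start. GAGGAA on either strand was found in 24 of 71 (33.8%), against 28.3% of 32851 RefSeq promoters of the same length. Among members not called in Jak2V617F against WT it was in 7 of 27. AGATAA, a form of the site of the erythroid factor GATA1, was found in 8.45% against 11.2% of all promoters, and TTCNNNGAA, the form bound by STAT proteins, in 2.82% against 8.30%. These are letter matches and say nothing of binding.

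On the members alone, Jak2V617F and Asxl1-/- stood apart from the other libraries, on different principal components. On the leading principal component of their log2 CPM, with 58.2% of the variance, Jak2V617F lay at 9.37 to 12.1 and all other libraries at -8.33 to -1.48. On the next, with 25.7%, Asxl1-/- lay at -8.11 and -5.85 and WT at 1.92 to 6.06. Jak2V617F (-0.18 to 3.75) overlapped WT there, and Asxl1-/-Jak2V617F lay at -3.69, -3.13 and 0.40. On the leading component Asxl1-/-Jak2V617F (-1.99 to -1.48) overlapped Asxl1-/- (-2.90 and -1.95).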

How the data were processed

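RNA-seq of 11 libraries was analysed from raw gene counts that the authors deposited in 1 table. HISAT2 2.0.5, featureCounts 1.5.0-p3 and the mm10 genome are named per the submitters' processing notes. For annotation release, strand setting and multiply mapped reads the choice made is not given in the sources used, which limits members that overlap or copy other genes. Genes were filtered with filterByExpr by genotype and scaled by TMM, and all 11 libraries entered a single edgeR 4.0.16 quasi-likelihood fit (R 4.3.3, limma 3.58.1, robust) with genotype as its term. P-values were adjusted by Benjamini-Hochberg over all 16262 genes, with a threshold of 0.05, and SE is the log2 change divided by the square root of F. The procedure was tested on simulated data. The biological coefficient of variation was 19.7%.

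The members and lists were chosen with earlier results of these data known. Named members were the 10 of highest CPM per kb, the 8 largest called rises and falls per comparison with at least 1 CPM and no overlap, up to 3 per functional class, the 6 of smallest interaction p, Malat1 and Neat1; others are said to be chosen later. Alternatives were DESeq2 1.42.0, other scalings and filters, a replicate block, only the groups compared, left-out libraries and subsets of members. Members without a RefSeq coding or pseudogene call, and members without Malat1, were subsets chosen after seeing the data. Functions named for genes are general background, and sequences are from RefSeq (GRCm38.p6).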

Additional observations from a re-analysis of the deposited data

Results flagged for a closer look

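The shift with Asxl1 loss differed between the Jak2V617F and WT backgrounds for 81 members by edgeR's interaction term, which is what brought them here. Those of smallest adjusted p had interactions, on the log2 scale, of 4.62 for Gm13431, -5.53 for Gpr141b, 3.49 for Gm37233, 3.20 for AI839979, 3.84 for Gm20342 and 2.63 for Malat1. The shift lay mainly on the WT background for Malat1, at -2.56 from WT to Asxl1-/- and 0.08 from Jak2V617F to Asxl1-/-Jak2V617F, and for Gm20342, at -2.83 and 1.01. The sex difference of the Asxl1-/- libraries and the lineage markers of Jak2V617F enter the same contrast, and their part was not tested. Over the 308 other tested autosomal lincRNA genes the median interaction was 0.82, against 0.90 over the members.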

How the results depend on the processing

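In the order Asxl1-/-Jak2V617F against Jak2V617F, Jak2V617F against WT, Asxl1-/- against WT, Asxl1-/-Jak2V617F against WT and interaction, 69, 91, 55, 31 and 81 members were called. Leaving out 1 library gave 60 to 65, 78 to 90, 13 to 63, 10 to 48 and 52 to 81; where 1 Asxl1-/- library was left, it is assumed to vary like the other groups. With replicate number as a block the counts were 67, 92, 50, 28 and 74. Same-numbered libraries correlated at -0.23 to 0.22 over 15 pairs, 5 of them above 0.1. Correlations of so few libraries cannot show whether same-numbered samples share a preparation. DESeq2 called 75, 94, 66, 48 and 85. The 82 members that overlap no other gene of the deposited table gave 42, 55, 21, 11 and 47, from fewer genes; 21 of the 82 overlap a coding gene in RefSeq. Among 129 named results, 1518 alternative values kept direction and side of the threshold, 157 lost the call, 1 gained it and 3 turned sign. All 3 were Malat1 in Asxl1-/-Jak2V617F against Jak2V617F, at -0.036 with library totals, -0.21 without Asxl1-/-Jak2V617F 3 and -0.03 without Jak2V617F 3; over the left-out libraries it ranged from -0.21 to 0.21, and the cause was not tested. Members near 1 CPM rest on few reads.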

Other observations

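Among the 16 members divergent from a coding gene within 1000 bases, 8 fell and 1 rose in Jak2V617F against WT, where 47.3% of all members and 29.2% of all genes fell. Between Asxl1-/-Jak2V617F and Jak2V617F 4 rose and 3 fell in the former, where 24.5% of all genes rose and 19.8% fell. 4833445I07Rik, chosen after its values were seen, holds the genes of miR-191 and miR-425. It measured 3.47, 3.38 and 3.13 CPM in WT, 1.69 and 4.24 CPM in Asxl1-/-, 2.25, 0.54 and 1.58 CPM in Jak2V617F and 4.21, 4.75 and 3.79 CPM in Asxl1-/-Jak2V617F. By edgeR it fell by 1.19 ± 0.45 in Jak2V617F against WT (adjusted p = 0.0403) and rose by 1.54 ± 0.45 in Asxl1-/-Jak2V617F against Jak2V617F (adjusted p = 0.0145). It overlaps the coding gene Dalrd3 in RefSeq, so reads may be shared.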
